A study of Mus musculus with 3 samples.

Results

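T cell receptor (TCR) β chains other than the transgenic one were found in 105 of 12208 thymocytes from mice that carry a fixed β chain. The members are the cells of the expression matrix whose barcode holds an assembled TCR contig that is a β chain (TRB), is marked productive and has a V gene other than TRBV19. Each of the 105 cells held 1 such contig. The V gene of the transgene is not named in the labels. TRBV19 was taken as its V gene because 1053 of the 1082 productive TRBV19 contigs in the matrix carried 1 and the same CDR3, the stretch where V, D and J segments meet.

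The cells came from 1 pool of thymocytes of 8 female mice, 7 to 12 weeks old, from which 6 populations were sorted and tagged with separate hashtag antibodies. All mice were TCliβ transgenic, had a Foxp3-GFP reporter and were TCRα+/-, with 1 intact allele for the α chain, so every group shares these alleles. The populations were CD4+CD8+ cells (DP), CD4+ cells that lacked CD73, CD25 and Foxp3 (CD4 SP), CD25+ and Foxp3lo progenitors of regulatory T cells (CD25+ TRP and Foxp3lo TRP), and regulatory T cells (Treg) without or with surface CD73. In the metadata, the class given as Treg was taken by elimination for the CD73- Treg sort. Surface Vα2, which TRAV14 segments encode, was required of every population, and all except DP came from thymus depleted of CD8+ cells. A single pool and 1 sorted sample per population give no replicates, so no test was run, and intervals are exact Clopper-Pearson 95% intervals that cover counting error only. The labels name neither the promoter that drives the transgene nor the mouse behind each cell, and the gene rows carry no names, so neither the sort nor the clusters could be checked against marker genes.

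A β chain is built before the α chain: a D segment joins a J segment, and a V segment then joins both. Once a β protein reaches the surface, further V joining on the other allele is normally shut down, which is called allelic exclusion, and a rearranged β transgene imposes this early. In the mouse locus the V segments lie before 2 clusters of D, J and C segments (TRBD1, TRBJ1 and TRBC1, then TRBD2, TRBJ2 and TRBC2). TRBV31 is the exception: it lies behind the constant genes in the opposite orientation and joins by inversion. TRBD1 can join segments of either J cluster, whereas TRBD2 lies behind the TRBJ1 cluster and normally joins only TRBJ2.

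The TCR library was enriched for α chains, so β contigs in it are off-target. A productive β contig of any V gene was found in only 1171 of 12208 cells, while 59.9% of cells had a productive α contig. A cell without a β contig is therefore a cell in which none was captured, and the shares below are shares of cells with a contig found. They are not shares of cells that express such a chain. Of the 12771 barcodes in the contig table, 7379 are shared with the expression matrix.

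The CDR3 nucleotide sequences below show how the member chains were joined, set against the transgene. They are the 5 member contigs with the most unique molecular identifiers (UMIs), the only member CDR3 found in a second barcode, a TRBV31 join, the join with the fewest bases between V and J, the longest CDR3, the most frequent TRBV19 CDR3 and both germline D segments. All run 5′ to 3′. Capitals mark the bases between the longest match to the germline V segment and the longest match to the germline J segment. They can hold D segment bases and added bases, but a D segment is not recognised in every join. In the TRBV15 chain with 37 UMIs, the longest run that matched a D segment had 2 bases. D or added bases that happen to match the V or J end stand in small letters.
TRBV15 with TRBJ2-3, DP cell, 37 UMIs: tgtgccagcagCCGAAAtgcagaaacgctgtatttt
TRBV12-2 with TRBJ2-7, CD73+ Treg cell, 27 UMIs: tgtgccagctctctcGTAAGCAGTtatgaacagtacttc
TRBV15 with TRBJ2-7, DP cell, 27 UMIs: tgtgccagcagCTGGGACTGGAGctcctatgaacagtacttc
TRBV12-2 with TRBJ2-5, CD73+ Treg cell, 23 UMIs: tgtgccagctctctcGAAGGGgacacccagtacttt
TRBV15 with TRBJ2-1, DP cell, 21 UMIs: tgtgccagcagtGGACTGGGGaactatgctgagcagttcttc
TRBV13-1 with TRBJ2-7, CD73+ Treg cell, 7 UMIs: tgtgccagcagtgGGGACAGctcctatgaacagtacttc
TRBV31 with TRBJ2-7, CD4 SP cell, 15 UMIs: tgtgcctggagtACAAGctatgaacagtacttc
TRBV1 with TRBJ2-5, CD73- Treg cell, 6 UMIs: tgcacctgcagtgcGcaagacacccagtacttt
TRBV5 with TRBJ1-3, CD73+ Treg cell, 3 UMIs: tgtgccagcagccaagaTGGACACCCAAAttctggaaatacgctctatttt
TRBV19 with TRBJ2-2, the most frequent TRBV19 CDR3: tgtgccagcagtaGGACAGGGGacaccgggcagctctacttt
Germline TRBD1: gggacagggggc
Germline TRBD2: gggactgggggggc

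The printed member CDR3 run from 33 to 51 bases, and no other member CDR3 is shorter or longer. Among the 105 members the median CDR3 had 39 bases, of which the junction between the V and J matches made up 10 (lowest 1, highest 20). No member had a junction of 0 bases, and 3 had a junction of 1 or 2 bases. The V match had a median of 13 bases and the J match 18. A run of at least 5 junction bases matched only or longer to TRBD1 in 44 members, to TRBD2 in 27 and equally to both in 6, and no such run was found in 28. Among the 26 members with a TRBJ1 segment, TRBD1 gave the longer match in 14, TRBD2 in 1 and both in 3. Among the 79 with a TRBJ2 segment, TRBD1 gave it in 30 and TRBD2 in 26. The D segments share most of their letters, so a short match does not settle which of them was used. Median junction length was 10.5 bases in CD73+ Treg, 11 in DP, 11 in CD4 SP and 9 in CD25+ TRP, with overlapping intervals of the medians.

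No CDR3 was repeated: the 105 members carried 105 different CDR3 nucleotide sequences, which also differ as amino acid sequences. The most frequent TRBV19 CDR3, in contrast, was carried by 1053 contigs. The TRBV13-1 chain with TRBJ2-7 printed above was assembled in a CD73+ Treg cell of cluster 9 with 7 UMIs and again, with 19 UMIs, in a barcode outside the expression matrix. Both barcodes also held the same α CDR3. The barcode outside the matrix held 2 productive α chains and the member cell 1.

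Members used 19 TRBV and 11 TRBJ segments, in 71 different pairs, of which 47 occurred once and none more than 4 times. In the GRCm38 build, all lie on chromosome 6 and are annotated as TCR V or J genes, and 0 members used a V pseudogene. The V segment used most was TRBV15 (41141188 to 41141658, plus strand), in 14 members (13.3%, 7.49 to 21.4). TRBV13-1 (41116007 to 41116468, plus strand) was used by 13 members (12.4%, 6.76 to 20.2), as was TRBV31 (41557691 to 41558452, minus strand). TRBV12-2 (41118851 to 41119364) and TRBV16 (41151740 to 41152230), both on the plus strand, were used by 9 members each (8.57%, 3.99 to 15.6). These 5 segments have overlapping intervals, so their order is not resolved by 105 cells. TRBV1 and TRBV5 followed with 8 members each, TRBV3 with 7, TRBV29 with 5, TRBV13-3 with 4, TRBV4 and TRBV23 with 3 each, and TRBV20 and TRBV26 with 2 each. TRBV2, TRBV12-1, TRBV14, TRBV17 and TRBV30 were used by 1 member each. Of the 22 V segments annotated as functional genes, TRBV13-2 and TRBV21 were used by no member, which allows a share of up to 2.86%.

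**Figure D1:**
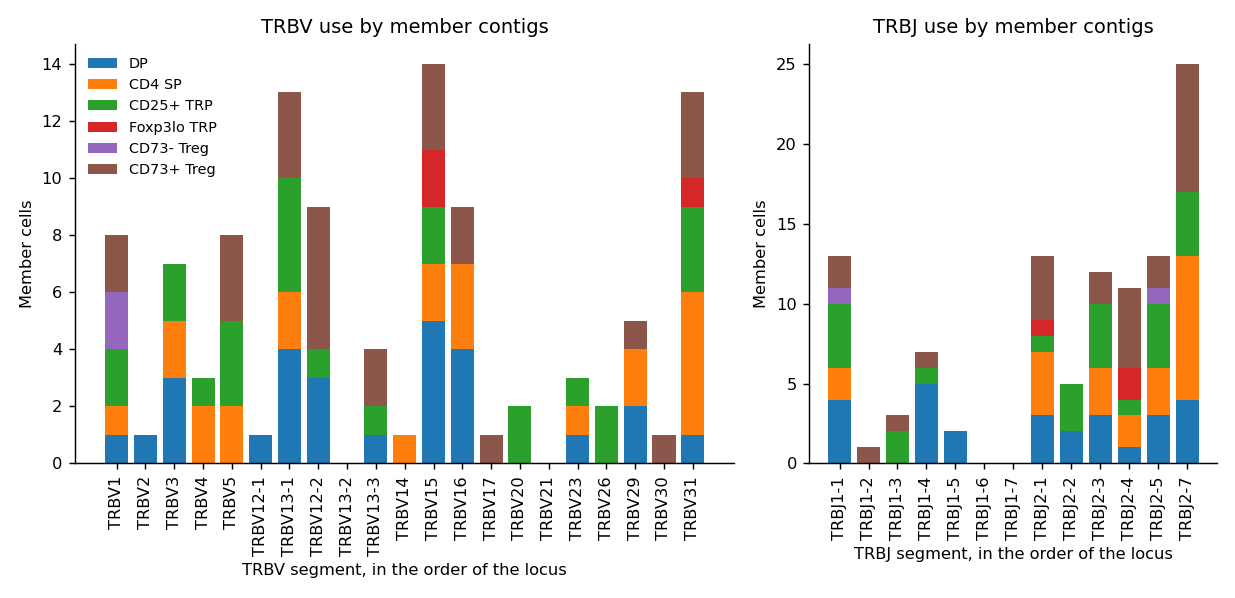
Number of member cells (vertical axes) by TRBV segment (left) and TRBJ segment (right), in the order of the locus on chromosome 6, with colours for the 6 sorted populations. TRBV15 stands highest among V segments with 14 cells and TRBJ2-7 among J segments with 25, and no V segment takes more than 13.3% of members.

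The most used V segments were each spread over populations, clusters and J segments. TRBV15 chains were found in 5 DP, 2 CD4 SP, 2 CD25+ TRP, 2 Foxp3lo TRP and 3 CD73+ Treg cells, with 7 different J segments. Their contigs had 8 to 37 UMIs with a median of 11.5, so none fell in the low tail described below. TRBV13-1 chains came from 4 DP, 2 CD4 SP, 4 CD25+ TRP and 3 CD73+ Treg cells and had 4 to 19 UMIs. TRBV31 chains came from 1 DP, 5 CD4 SP, 3 CD25+ TRP, 1 Foxp3lo TRP and 3 CD73+ Treg cells and had 2 to 15 UMIs. TRBV12-2 chains came from 3 DP, 1 CD25+ TRP and 5 CD73+ Treg cells and from no CD4 SP cell. TRBV16 chains came from 4 DP, 3 CD4 SP and 2 CD73+ Treg cells. With 1 to 5 cells per segment and population, no segment can be called particular to a population. The neighbouring TRBV12 and TRBV13 segments together made up 38.5% of CD73+ Treg members (10 of 26, 20.2 to 59.4), 33.3% of DP members (9 of 27, 16.5 to 54.0), 25% of CD25+ TRP members (6 of 24, 9.77 to 46.7) and 8.70% of CD4 SP members (2 of 23, 1.07 to 28). These intervals overlap.

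Joining to the second J cluster prevailed. TRBJ2 segments were used by 79 of 105 members (75.2%, 65.9 to 83.1) and TRBJ1 segments by 26 (24.8%, 16.9 to 34.1). TRBJ2-7 (41543810 to 41543856), the last J segment before TRBC2, was used by 25 members (23.8%, 16 to 33.1), with 12 different V segments. TRBJ1-1 (41533864 to 41533911), TRBJ2-1 (41542754 to 41542803) and TRBJ2-5 (41543453 to 41543501) were tied in the next place with 13 members each. TRBJ2-3 was used by 12, TRBJ2-4 by 11, TRBJ1-4 by 7, TRBJ2-2 by 5, TRBJ1-3 by 3, TRBJ1-5 by 2 and TRBJ1-2 by 1. TRBJ1 made up 40.7% of DP members (11 of 27, 22.4 to 61.2) and 8.70% of CD4 SP members (2 of 23, 1.07 to 28), with 29.2% in CD25+ TRP (7 of 24, 12.6 to 51.1) and 19.2% in CD73+ Treg (5 of 26, 6.55 to 39.4) between them. The intervals of DP and CD4 SP overlap. By segment, the DP members with TRBJ1 were 5 with TRBJ1-4, 4 with TRBJ1-1 and 2 with TRBJ1-5, and both CD4 SP members had TRBJ1-1.

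The constant gene was annotated on 18 of the 26 TRBJ1 contigs and was TRBC1 each time, the constant gene of the first cluster. None of the 79 TRBJ2 contigs carried a constant gene call. The same held for 1075 of the 1082 TRBV19 contigs, whose most frequent CDR3 is joined to TRBJ2-2, so for TRBJ2 chains the C gene gives no check of the J call. Contigs of members had a median length of 521 bases (419 to 904), against 599 bases for TRBV19 contigs (495 to 1460).

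Members made up 0.860% of all cells (105 of 12208, 0.704 to 1.04) and 8.97% of the cells with a productive β contig (105 of 1171, 7.39 to 10.8). They were found in all 6 populations. Of all cells, they were 0.894% in DP (27 of 3021, 0.590 to 1.30), 0.944% in CD4 SP (23 of 2436, 0.599 to 1.41), 0.959% in CD25+ TRP (24 of 2503, 0.615 to 1.42) and 1.08% in CD73+ Treg (26 of 2401, 0.709 to 1.58). In Foxp3lo TRP they were 0.215% (3 of 1393, 0.0444 to 0.628) and in CD73- Treg 0.441% (2 of 454, 0.0534 to 1.58). The interval of Foxp3lo TRP lies below that of CD73+ Treg and overlaps the other 4. It overlaps that of CD73+ Treg too in cells of 1000 to 5000 UMIs (0.0181 to 0.540 and 0.432 to 1.22), without cells with 2 or more α chains (0.0459 to 0.649 and 0.625 to 1.47), without cluster 9 (0.0445 to 0.629 and 0.295 to 1.05) and without cluster 11 (0.0445 to 0.629 and 0.616 to 1.45). The intervals of Foxp3lo TRP and CD73+ Treg stayed apart with at least 3 UMIs per contig (0.0174 to 0.518 and 0.675 to 1.53). So they did without the top 5% of cells by UMIs (0.0183 to 0.545 and 0.571 to 1.40). Without cells with TRBV19 they were narrowly apart (0.0185 to 0.551 and 0.552 to 1.39). Of cells with a productive α contig, Foxp3lo TRP (0.0730 to 1.03) lay below CD73+ Treg (1.45 to 3.27) and DP (1.12 to 2.63). TRBV19 contigs were found in 6.03% of Foxp3lo TRP cells, beside 8.85% of all cells.

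Counted among cells with a productive β contig, which sets aside only in part how often any β chain was captured, all populations had overlapping intervals. Members were 12.6% of such cells in CD73+ Treg (26 of 206, 8.41 to 17.9), 11.2% in DP (27 of 241, 7.51 to 15.9), 8.70% in CD73- Treg (2 of 23, 1.07 to 28), 7.82% in CD4 SP (23 of 294, 5.02 to 11.5), 7.48% in CD25+ TRP (24 of 321, 4.85 to 10.9) and 3.49% in Foxp3lo TRP (3 of 86, 0.725 to 9.86). The 5 members of Foxp3lo TRP and CD73- Treg are too few to describe either population further.

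**Figure D2:**
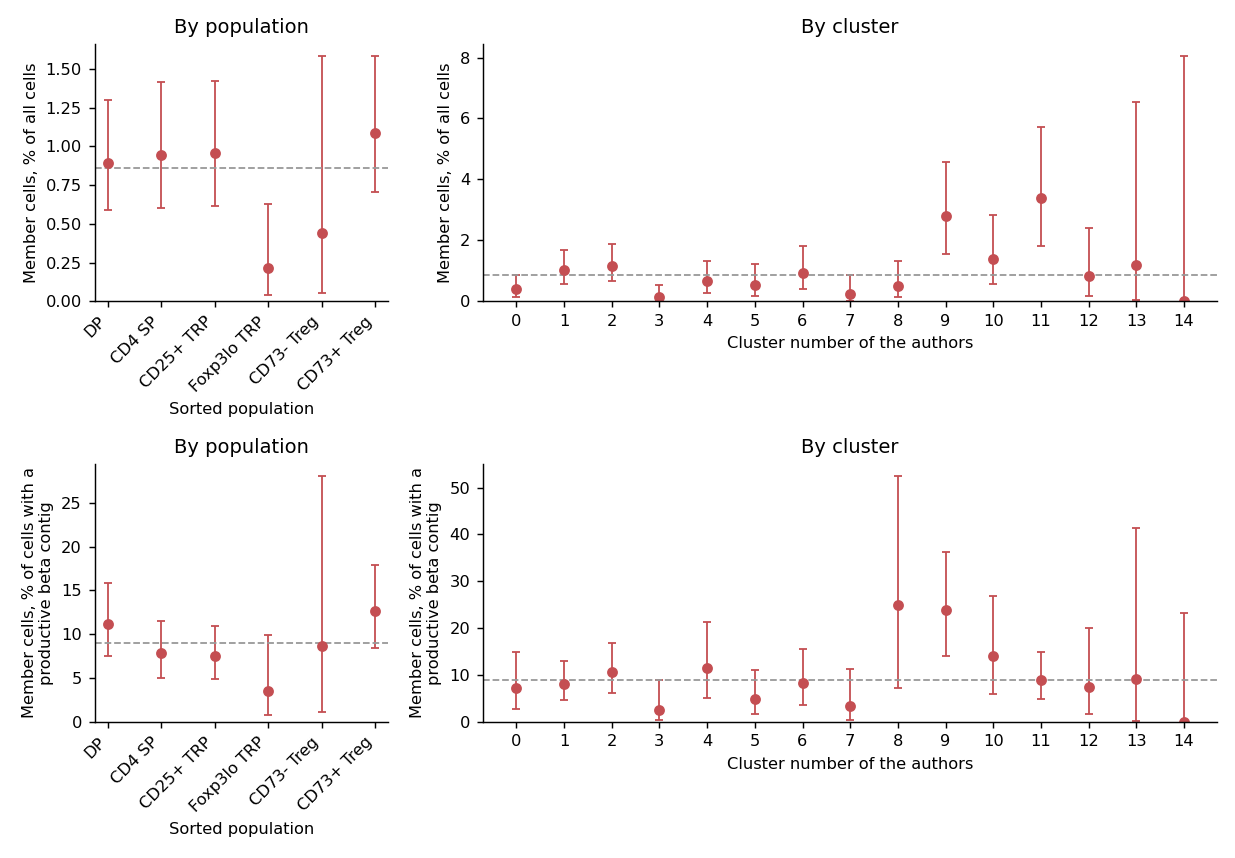
Member cells as a percent of all cells (top) and of cells with a productive β contig (bottom), by sorted population (left) and by the authors' cluster number (right). Points are shares, bars exact 95% intervals and dashed lines the share in the whole matrix (0.860% and 8.97%). The interval of cluster 9 lies above the line in both rows, that of cluster 11 only in the top row. The interval of cluster 3 lies below the line in both rows, those of cluster 0 and Foxp3lo TRP only in the top row.

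The authors' 15 clusters split the CD73+ Treg members. Cluster 9 is almost wholly CD73+ Treg, with 536 of its 538 cells from this population, so that its 15 members were all CD73+ Treg follows its makeup. It held 536 of the 2401 CD73+ Treg cells. Members were 2.80% of CD73+ Treg cells in cluster 9 (15 of 536, 1.57 to 4.57) and 0.590% outside it (11 of 1865, 0.295 to 1.05), with intervals apart. Of the cells with a productive β contig they were 23.8% in cluster 9 (15 of 63, 14 to 36.2) and 7.69% outside it (11 of 143, 3.90 to 13.3), also with intervals apart. TRBV19 contigs were found in 9.33% of the former and 7.29% of the latter cells, and median cell UMIs were 2381 and 2748. Among CD73+ Treg cells of 1000 to 5000 UMIs, members were 2.12% in cluster 9 (10 of 472, 1.02 to 3.86) and 0.365% outside it (6 of 1646, 0.134 to 0.792), with intervals apart. Of such cells with a β contig they were 24.4% (10 of 41, 12.4 to 40.3) and 6.90% (6 of 87, 2.57 to 14.4), and these intervals overlap. Clusters 9 and 11, the range of 1000 to 5000 UMIs within clusters, and the settings without either cluster were chosen after the shares had been seen.

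The members of cluster 9 did not form a clone. They used 8 TRBV and 8 TRBJ segments and carried 15 different CDR3. TRBV12-2 was used by 3 of them, TRBV5, TRBV13-1, TRBV13-3, TRBV15 and TRBV16 by 2 each, and TRBV17 and TRBV30 by 1 each. Their contigs had 2 to 23 UMIs with a median of 9, the median of all members. Of the 15, 2 also carried a TRBV19 contig and 2 had 2 productive α chains. The longest CDR3 and the chain found again outside the matrix, both printed above, belong to this cluster.

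Cluster 11 held the highest share of all cells (3.39%, 13 of 383, 1.82 to 5.73), but it was also the cluster with the highest depth, at a median of 6079 UMIs per cell. TRBV19 contigs were found in 35.8% of its cells. Of its cells with a productive β contig, members were 8.97% (13 of 145, 4.86 to 14.8), equal to the share in the whole matrix. Its members came from 4 populations (3 DP, 4 CD4 SP, 3 CD25+ TRP and 3 CD73+ Treg cells). Their contigs had 6 to 37 UMIs with a median of 11, and 5 of the 13 also carried TRBV19.

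Among the 14 clusters with members, the share of all cells was lowest in cluster 3, with 2 of 1340 cells (0.149%, 0.0181 to 0.538), and cluster 7, with 2 of 822 (0.243%, 0.0295 to 0.876). In cells of 1000 to 5000 UMIs cluster 3 had 0 of 1241, which allows a share of up to 0.242%. Cluster 14 had 0 of 44, which allows a share of up to 6.82%. DP members lay in clusters 4 (8 cells), 6 (8), 8 (4), 2 (3), 11 (3) and 13 (1). CD4 SP members lay in clusters 1 (9), 2 (9), 11 (4) and 10 (1). CD25+ TRP members were spread over 8 clusters, 6 of them in cluster 1 and 4 each in clusters 2 and 5. Cluster 8, with the lowest depth (median 1087 UMIs), held 4 members among only 16 cells with a β contig (25%, 7.27 to 52.4).

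Member contigs rested on fewer UMIs than TRBV19 contigs. The median was 9 UMIs for members (quartiles 6 and 11, range 2 to 37) and 14 for TRBV19 contigs (quartiles 10 and 19, range 1 to 55), with exact 95% intervals of the medians of 8 to 9 and 13 to 14. The member median was thus 64.3% of the TRBV19 median. In DP the medians were 9 (range 2 to 37) and 18 (5 to 55), in CD4 SP 8 (3 to 20) and 13 (4 to 37), in CD25+ TRP 9 (3 to 18) and 15 (3 to 42), and in CD73+ Treg 8.5 (2 to 27) and 13 (1 to 53). The intervals of the medians were apart in these 4 populations. The 3 Foxp3lo TRP members had 2, 8 and 15 UMIs beside a TRBV19 median of 12, and the 2 CD73- Treg members had 6 and 7 beside 13. In every population the member median was the lower, and the ranges overlapped.

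**Figure D3:**
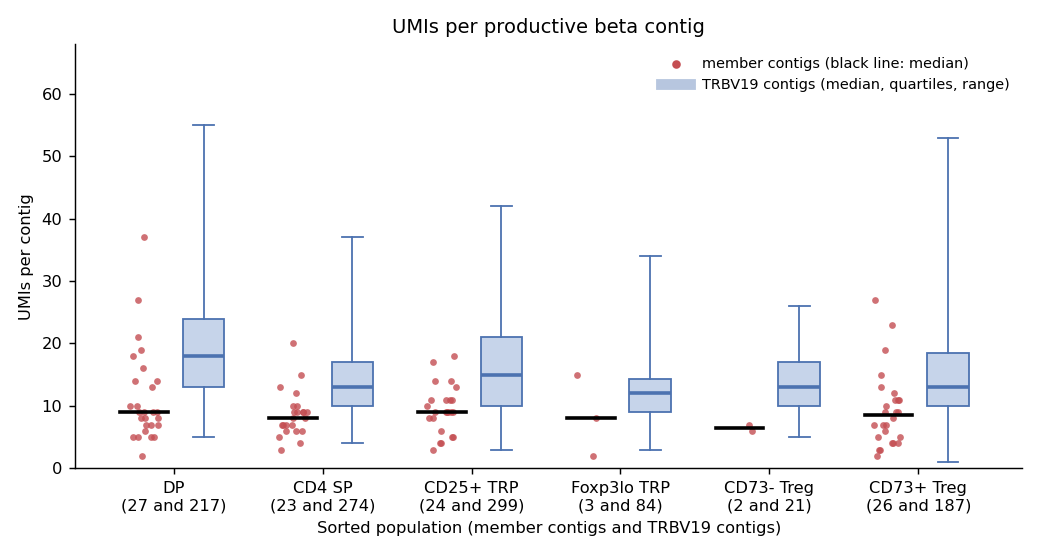
UMIs per productive β contig (vertical axis) in each sorted population, as points for member contigs with a black line at their median and as boxes (median, quartiles, whiskers to the range) for TRBV19 contigs. The member median, 6.5 to 9 UMIs, lies under the TRBV19 median, 12 to 18 UMIs, in all 6 populations.

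Fewer than 5 UMIs supported 13 of 105 members (12.4%, 6.76 to 20.2) and 12 of 1082 TRBV19 contigs (1.11%, 0.574 to 1.93). More than 20 UMIs supported 5 members (4.76%, 1.56 to 10.8), the 5 with the highest counts printed above, and 237 TRBV19 contigs (21.9%, 19.5 to 24.5). The 13 low members came from 5 populations and 7 clusters, 1 of them also carried TRBV19, and their cells had a median of 2806 UMIs, against 3076 for the other members. Reads gave the same picture, with medians of 28 for members and 46 for TRBV19 contigs, and both kinds had about the same number of reads per UMI (medians 3.08 and 3.11). Members with a TRBC1 call and members without a constant gene call had the same median of 9 UMIs. In cells of 1000 to 5000 UMIs the medians were 8 and 13. Contig UMIs and cell UMIs were correlated across cells on the log10 scale (Pearson's r of 0.32 over 105 member cells and 0.37 over 1082 TRBV19 contigs), as points that share 1 set of libraries. The part of the shorter contigs of members in their lower UMIs was not tested.

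TRBV19 was found beside the other β chain in 15 of 105 member cells (14.3%, 8.22 to 22.5). Among the 12103 cells that are not members, it was found in 1066 (8.81%, 8.31 to 9.33), and among those of them with a productive α contig in 1004 of 7212 (13.9%, 13.1 to 14.7). Members with a productive α contig carried TRBV19 in 15 of 100 cells (15%, 8.65 to 23.5). The intervals of members and other cells overlap in both comparisons. In cells of 1000 to 5000 UMIs, TRBV19 was found in 8 of 84 members (9.52%, 4.20 to 17.9) and 759 of 10696 other cells (7.10%, 6.62 to 7.60). TRBV19 was not found in most cells of these transgenic mice, so the 90 member cells in which it was not found cannot be read as cells without it.

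By population, TRBV19 was found in 6 of 26 CD73+ Treg members (23.1%, 8.97 to 43.6), 3 of 27 DP members (11.1%, 2.35 to 29.2), 3 of 23 CD4 SP members (13%, 2.78 to 33.6), 2 of 24 CD25+ TRP members (8.33%, 1.03 to 27.0), 1 of 3 Foxp3lo TRP members and 0 of 2 CD73- Treg members. The interval for CD73+ Treg members lies above that of the other CD73+ Treg cells (180 of 2375, 7.58%, 6.55 to 8.72). It overlaps that of the other CD73+ Treg cells with a productive α contig (173 of 1098, 15.8%, 13.6 to 18.0).

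The 15 cells with both chains used TRBV31 in 3 cells, TRBV12-2, TRBV13-1, TRBV15 and TRBV16 in 2 each, and TRBV1, TRBV2, TRBV4 and TRBV5 in 1 each. TRBV19 had more UMIs than the other chain in 11 of them, as many in 2 and fewer in 2. The widest gaps were in a DP cell of cluster 6 (TRBV13-1 with 5 UMIs, TRBV19 with 26) and a CD73+ Treg cell of cluster 9 (TRBV13-1 with 10, TRBV19 with 25). The cells where TRBV19 was the lower were a CD25+ TRP cell of cluster 11 (TRBV5 with 11, TRBV19 with 10) and a Foxp3lo TRP cell of cluster 10 (TRBV15 with 15, TRBV19 with 14). Medians were 9 UMIs for the member contig and 13 for TRBV19, close to the 9 and 14 of cells with only 1 of the chains. These cells had a median of 4364 UMIs (2080 to 12975), against 2863 for the 90 members without TRBV19, 5 of them lay in cluster 11, and 2 had 2 productive α chains. High UMIs and 2 α chains are also found in barcodes that hold more than 1 cell. Doublets were not called here, and their part in the cells with both chains was not tested.

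**Figure D4:**
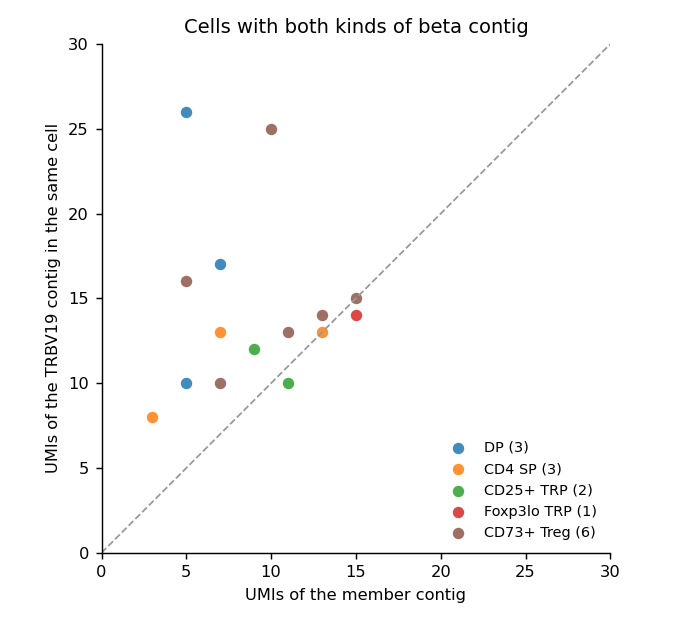
UMIs of the TRBV19 contig (vertical axis) against UMIs of the other β contig (horizontal axis) in the 15 cells with both, coloured by sorted population. The dashed line marks equal counts. Of the 15 points, 11 lie above it, 2 on it and 2 below it.

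An α chain was assembled in nearly every member. Of the 105 members, 100 had at least 1 productive α contig (95.2%, 89.2 to 98.4), as had 1004 of the 1066 cells with TRBV19 alone (94.2%, 92.6 to 95.5). The share was 56.2% in the 11037 cells with no productive β contig (55.3 to 57.2). The 5 members without an α contig were 4 DP cells and 1 CD73+ Treg cell. DP cells in general yielded α contigs in 43.3% of cells. The share was 85.2% in DP members (23 of 27, 66.3 to 95.8) and 80.4% in DP cells with TRBV19 alone (172 of 214, 74.4 to 85.5), with overlapping intervals.

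Members rarely had 2 α chains. Exactly 1 was found in 95 members and 2 in 5, which is 4.76% of members (1.56 to 10.8), beside 14.6% of cells with TRBV19 alone (156 of 1066, 12.6 to 16.9) and 1.53% of cells without a β contig (169 of 11037, 1.31 to 1.78). The interval of members lies below that of TRBV19 cells. The 5 members were 3 CD73+ Treg cells (TRBV12-2 in 2 and TRBV15 in 1), a CD4 SP cell with TRBV31 and a DP cell with TRBV29. Depth moved with this result: 4 of the 5 cells had over 5000 UMIs, and in cells of 1000 to 5000 UMIs the shares were 1 of 84 members (1.19%, 0.0301 to 6.46), 60 of 759 TRBV19 cells (7.91%, 6.09 to 10.1) and 0.906% of cells without a β contig (0.729 to 1.11). There the intervals of members and TRBV19 cells overlap. The mice have 1 intact allele for the α chain, and whether 2 α contigs of a barcode came from 1 cell was not tested.

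The α chains of members were those the Vα2 gate selects. TRAV14 family segments made up 102 of their 105 productive α chains (97.1%, 91.9 to 99.4), beside 98.0% in TRBV19 cells and 97.3% in cells without a β contig. All 3 exceptions were among the 24 α chains of DP members. In DP the TRAV14 share was 87.5% in members (21 of 24, 67.6 to 97.3), 91.3% in TRBV19 cells (178 of 195, 86.4 to 94.8) and 90.5% in cells without a β contig (1024 of 1131, 88.7 to 92.2), with overlapping intervals. The TRAV14 copies are near-identical, and which copy was called is uncertain. Members with 1 α chain used 34 different TRAJ segments, TRAJ21 most often (7 of 95, 7.37%, 3.01 to 14.6) and then TRAJ23 and TRAJ27 (6 each). The α contig rested on a median of 20 UMIs in members (16 to 24), 22 in TRBV19 cells (21 to 23) and 17 in cells without a β contig (17 to 18).

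The share of cells whose α chain recurred in another cell was lower in members than in TRBV19 cells when all populations were pooled. Among cells with exactly 1 productive α chain, the α CDR3 nucleotide sequence recurred in another such cell for 37 of 95 members (38.9%, 29.1 to 49.5), 481 of 848 TRBV19 cells (56.7%, 53.3 to 60.1) and 3000 of 6039 cells without a β contig (49.7%, 48.4 to 50.9). The intervals of members and TRBV19 cells are apart, and that of members overlaps cells without a β contig. In CD4 SP it recurred for 8 of 22 members (36.4%, 17.2 to 59.3), 158 of 227 TRBV19 cells (69.6%, 63.2 to 75.5) and 925 of 1600 cells without a β contig (57.8%, 55.3 to 60.2). In DP, where α chains recur least, the shares were 22.7% (5 of 22, 7.82 to 45.4), 25.5% (18.7 to 33.3) and 27.1% (24.5 to 29.9). In CD25+ TRP the shares of members and TRBV19 cells were 54.2% (13 of 24, 32.8 to 74.4) and 64.8% (58.6 to 70.7), and in CD73+ Treg 45.5% (10 of 22, 24.4 to 67.8) and 55.5% (47.0 to 63.7), with overlapping intervals. By amino acid sequence, the shares over all populations were 50.5% for members (40.1 to 60.9), 70.2% for TRBV19 cells (67.0 to 73.2) and 65.8% for cells without a β contig (64.6 to 67.0). The pooled interval of members lay below both. Within each population, the amino acid intervals of members and cells without a β contig overlapped. In CD4 SP they were 32.2 to 75.6 and 71.5 to 75.8, with 76.8 to 87.1 for TRBV19 cells. The pooled shares mix populations in unlike parts: DP gave 22 of the 95 members, 149 of the 848 TRBV19 cells and 1095 of the 6039 others. The part of this mix in the pooled difference was not tested.

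A single α CDR3 occurred in more than 1 of the 95 members. It joined TRAV14-1 to TRAJ42 and was found in 6 cells of the matrix. Of these, 2 were members with different β chains: a CD73+ Treg cell of cluster 11 with TRBV12-2 and TRBJ2-7, the chain with 27 UMIs printed above, and a CD73+ Treg cell of cluster 9 with TRBV16 and TRBJ1-1.

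Over all populations, member cells had more UMIs than cells without a β contig, and the intervals of members and TRBV19 cells overlap. Median cell UMIs were 3039 in members (2583 to 3373), 3522.5 in cells with TRBV19 alone (3339 to 3663) and 2335 in cells with no productive β contig (2312 to 2362). Within DP the medians were 2074 in members (1584 to 3152), 2011.5 in TRBV19 cells (1849 to 2227) and 1426 in cells without a β contig (1401 to 1446). In CD73+ Treg they were 3953.5 (2517 to 5755), 4372.5 (3764 to 4743) and 2614 (2556 to 2660), and in CD4 SP 3166 (2558 to 3777), 3392 (3177 to 3638) and 2672 (2630 to 2701). In CD25+ TRP members had 3241 (2759 to 4005), close to the 3166.5 of cells without a β contig (3095 to 3228), and TRBV19 cells had 4431 (3963 to 4887). Of these 4 populations, members lay above cells without a β contig with intervals apart in DP, and in the other 3 the intervals overlapped. The 5% of cells with the most UMIs in each population held 14.3% of members (8.22 to 22.5), 19.4% of TRBV19 cells (17.1 to 21.9) and 3.52% of cells without a β contig (3.19 to 3.89).

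**Figure D5:**
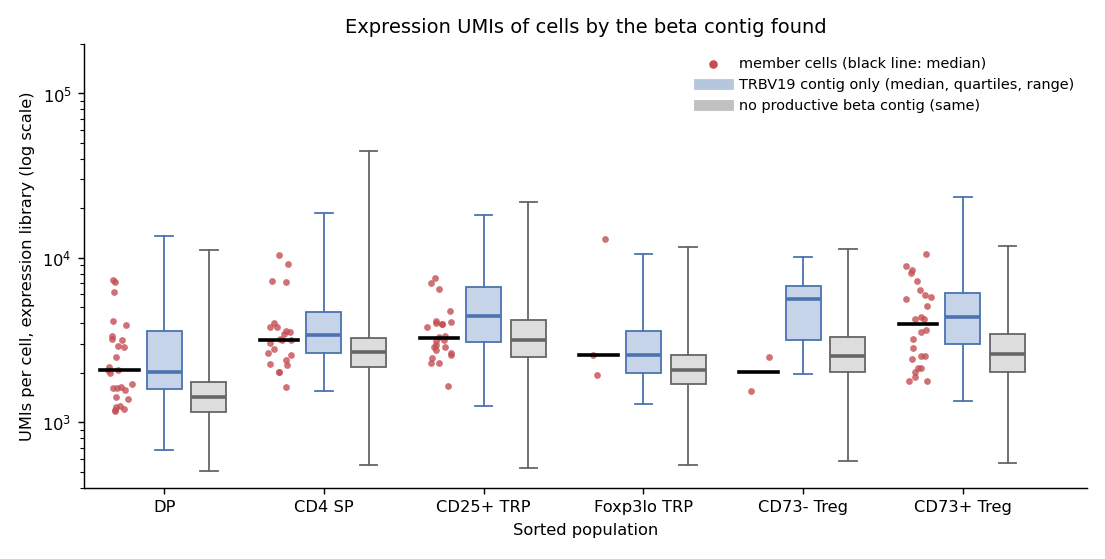
UMIs per cell in the expression library (vertical axis, log scale) by sorted population, as points for member cells with a black line at their median and as boxes (median, quartiles, whiskers to the range) for cells with TRBV19 alone and cells with no productive β contig. Member medians lie above those of cells without a β contig in all populations except CD73- Treg, which has 2 members.

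The share of cells with a TRBV19 contig was higher in each successive range of cell UMIs, and that of members was highest in the deepest cells, with overlapping intervals in the ranges between 2000 and 6000 UMIs. Members went from 0 of 413 cells under 1000 UMIs, which allows a share of up to 0.726%, to 0.521% of cells of 1000 to 2000 UMIs (20 of 3842, 0.318 to 0.803) and 0.782% of those of 2000 to 3000 (32 of 4091, 0.536 to 1.10). They were 1.16% of cells of 3000 to 4000 (23 of 1989, 0.734 to 1.73), 1.04% of cells of 4000 to 6000 (13 of 1253, 0.554 to 1.77) and 2.74% of cells of 6000 or more (17 of 620, 1.61 to 4.35). Over the same 6 ranges TRBV19 was found in 0.484%, 3.93%, 6.48%, 11.4%, 17.6% and 34.8% of cells. Differences in the share of all cells between populations or clusters of unequal depth therefore carry this dependence, which the share among cells with a β contig sets aside in part.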

How the data were processed

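The deposited files hold UMI counts per gene row and cell (14790 rows without gene names, 12208 cells, 34190869 UMIs), a hashtag class and cluster number per cell, and, for 21598 assembled TCR contigs, the read and UMI counts, V, J and C gene, CDR3 and productivity as the authors deposited them. They come from 10x 5′ v2 libraries, per the labels' protocols. The submitters' processing notes name the tools Cell Ranger 3.1.0 and Seurat 3.1.1 and, as builds, GRCm38 and mm10. The role of each, the cell filters and whether doublets were removed are not stated there or in the labels. The 3 GEO samples are 3 library types from the same cells. The metadata carry no barcode and were joined to the count table by row order, which gave the right clonotype for 6982 of 6982 cells that have one.

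Shares have exact Clopper-Pearson 95% intervals, medians exact order-statistic intervals (for under 6 values, the range), and a count of 0 allows the share of 3 counts. All cover counting error only. Germline matches and coordinates came from GENCODE M21. V and J ends are the longest exact matches from either end of the CDR3. Bases that match by coincidence lengthen them, so the junctions can come out too short. The matching was tried on simulated joins, and the outcome is not reported here. A D match needed at least 5 bases. Every TRBV and TRBJ used was to be named, with the 5 most used TRBV and 3 most used TRBJ, every repeated CDR3 and the 5 contigs with the most UMIs in full (4 TRBJ, since 3 tied). Marker lists could not be used on unnamed rows, and no enrichment was tested. The members and lists were chosen with earlier results of these data known. Values were computed with Python 3.11.15, pandas 2.3.3 and scipy 1.17.1.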

Additional observations from a re-analysis of the deposited data

Results flagged for a closer look

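Contigs outside the comparisons above also held β chains other than TRBV19. The limits given below for a count of 0 are the share of 3 counts and not a measured background. Of the 5392 barcodes of the contig table that are not in the expression matrix, 98 carried a productive β contig with a V gene other than TRBV19 (1.82%, 1.48 to 2.21, where a count of 0 allows 0.0556%). These 99 contigs used TRBV1 and TRBV31 most (14 each), then TRBV5 and TRBV13-1 (10 each), and TRBJ2-7 in 27. TRBJ2 segments made up 70.7% (60.7 to 79.4), beside 75.2% of members. Their median was 11 UMIs (10 to 13), against 9 in members. Of the 98 barcodes, 37 held 2 or more productive α chains (37.8%, 28.2 to 48.1). Among all barcodes outside the matrix the share was 48.6% (47.2 to 49.9), and among barcodes in both it was 4.47% (4.01 to 4.97). No population or cluster is given for them.

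Within the matrix, 65 nonproductive β contigs had a V gene other than TRBV19, in 65 cells (0.532% of cells, where a count of 0 allows 0.0246%), 1 of them a member. TRBV31 was called in 22 of the 65, TRBV15 in 7 and TRBV13-2, which no member used, in 4. A further 530 β contigs had no V gene call.

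Among the 1082 productive TRBV19 contigs, 29 had a CDR3 other than the most frequent one. Of these, 20 had the same length and differed from it by at most 3 bases, and 9 were further away or of another length (0.832% of TRBV19 contigs, where a count of 0 allows 0.277%). These 9 are not counted among the members, whose V gene is never TRBV19.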

How the results depend on the processing

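The 6 populations are 1 sorted sample each, so the intervals say nothing about mice, and Foxp3lo TRP and CD73- Treg rest on 5 members. Alternatives were compared with each result's interval, or within 1.5 times for a count. Of 193 settings, 163 stayed within those limits and 30 moved. Some settings could not move a result. Counting each different CDR3 once, or asking for at least 2 UMIs per contig, left the same 105 members, so segment use was unchanged under both. The number of members was 169 with nonproductive contigs included and 203 over all barcodes of the contig table. Shares moved with the denominator. Of cells with a productive β contig, members were 8.97% in all, 12.6% in CD73+ Treg, 8.70% in CD73- Treg, 11.2% in DP, 3.49% in Foxp3lo TRP, 7.48% in CD25+ TRP, 7.82% in CD4 SP, 23.8% in cluster 9 and 8.97% in cluster 11. Of cells with a productive α contig they were 1.37% in all, 1.76% in DP and 2.23% in CD73+ Treg. Settings chosen after seeing the data gave 0.590% of CD73+ Treg cells without cluster 9, 1.19% of members with 2 α chains in cells of 1000 to 5000 UMIs, and 50.5% of members with a recurring α CDR3 by amino acid. In the 5 UMI comparisons, the member median stayed between 60.9% (reads in place of UMIs) and 64.3% of the TRBV19 median. No paired test was run, since no result comes from a test. The 3 GEO samples are library types of the same cells. UMIs of both β chains were compared within the same cell, as counts only, in the 15 cells that held both.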
